A study of Mus musculus with 13 samples.

Results

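The genes described here are 53 genes of DNA replication and S phase, the part of the cell cycle in which the genome is copied. They were chosen by name from the 46958 genes of a count table of mouse renal glomeruli, the filtering units of the kidney, and all 53 were found in it. They were grouped by gene function, with earlier results of these data known. RNA came from glomeruli purified with magnetic beads, at 6 months of age, from mice on a mixed C57/BL6x129/SVxBALB/c background. The LCDD group, labelled kFRA (LCDD), has 4 libraries and models light chain deposition disease, a disorder of kidney deposits built from a clonal antibody light chain. The DH-LMP2A group has 4 libraries, and the labels do not describe this genotype. As background on this model, and not from the labels, DH-LMP2A mice lack normal immunoglobulin heavy chains and carry the viral signalling protein LMP2A, and the LCDD mice carry a human kappa light chain gene on that background. The wild-type (WT) group has 5 libraries. Each library pooled 3 mice, except WT replicates 3, 4 and 5, which came from 1 mouse each, and p-values measure the spread between these libraries. The titles carry a code (NS161202, NS170411, NS171018 or NS180319) whose meaning is not given. Each code holds 1 LCDD and 1 DH-LMP2A library, and WT has none under NS170411 and 3 under NS180319.

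Replication begins when the origin recognition complex, CDC6 and CDT1 load the MCM2-7 helicase onto DNA in G1, a step called licensing. In S phase, CDC45 and the GINS complex switch the helicase on, primase and the polymerases copy both strands, and PCNA holds the polymerases on the template. Many of these genes are transcribed under E2F factors as a cell commits to division. Most cells of the adult glomerulus, podocytes above all, rarely divide, so their replication genes are known to be expressed at low levels.

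E2F core spellings and the letters CCAAT were more frequent in promoters of the members than in those of all genes. RefSeq promoters on GRCm38.p6, each running from 250 bases before to 50 bases after a transcript start, were found for 43 of the 53 members. On either strand, 20 of the 43 (46.5%) held at least 1 of the E2F core spellings TTTCCCGC, TTTCGCGC, TTTGCCGC or TTTGGCGC, against 704 of the 27025 genes with a promoter (2.6%). A spelling can overlap another on the opposite strand, as in Mcm5. The letters CCAAT, on either strand, stood in 28 of the 43 members (65.1%) and in 41.1% of all genes. E2F spellings stood in 6 of the 11 matched members that passed a test against either other genotype and in 13 of the 31 tested members that passed neither (41.9%). A match describes letters only and does not show that a factor binds there. The stretches that follow show a match, in capitals (its reverse complement where the match is on the other strand), with up to 26 bases on each side, written 5′ to 3′ on the gene's strand. Dtl, Cdc6, Uhrf1, E2f7 and Mcm6 are shown because they passed edgeR's test, and Mcm5, Gins3 and Pola1 because they carry the same letters and did not pass it. The start named is that of the RefSeq transcript of the window. It can lie within the gene, and the stretches of Cdc6 and Uhrf1 lie inside the spans of these genes. The other Uhrf1 window, 56303087 to 56303386, at the gene's 5′ end, held no E2F spelling.
Dtl, chr1:191575545-191575578, minus strand, match starting 8 bases before the start: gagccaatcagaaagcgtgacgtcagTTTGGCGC
Cdc6, chr11:98907987-98908046, plus strand, 138 bases before the start: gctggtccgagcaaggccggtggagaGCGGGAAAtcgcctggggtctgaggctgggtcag
Uhrf1, chr17:56304102-56304161, plus strand, 185 bases before the start: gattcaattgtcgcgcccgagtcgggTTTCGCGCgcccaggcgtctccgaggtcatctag
E2f7, chr10:110745215-110745274, plus strand, 198 bases before the start: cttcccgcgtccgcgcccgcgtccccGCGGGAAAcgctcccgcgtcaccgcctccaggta
Mcm6, chr1:128359719-128359778, minus strand, 47 bases before the start: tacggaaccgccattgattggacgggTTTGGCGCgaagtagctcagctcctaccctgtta
Mcm5, chr8:75109330-75109389, plus strand, 153 bases before the start: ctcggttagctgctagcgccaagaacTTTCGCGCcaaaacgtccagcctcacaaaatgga
Gins3, chr8:95633492-95633551, plus strand, 41 bases before the start: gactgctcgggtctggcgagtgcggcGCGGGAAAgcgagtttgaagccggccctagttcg
Pola1, chrX:93632260-93632319, minus strand, 138 bases before the start: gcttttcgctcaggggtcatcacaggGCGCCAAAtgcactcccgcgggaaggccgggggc

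Libraries held 16687509 to 30587890 counts. Values are CPM, that is, counts scaled by library size with TMM factors, which correct for differences in library composition. Podocyte markers summed to 6880 to 32368 CPM, mesangial markers to 2403 to 4558 CPM and glomerular endothelial markers to 3190 to 10971 CPM, as the tissue label states. Tubule markers were also present: the 7 proximal tubule markers summed to 460.1 to 1434 CPM in LCDD, 375.9 to 3023 CPM in DH-LMP2A and 93 to 1984 CPM in WT. Of the markers of other cell types, Ly6g alone stayed at or under 3 counts in every library. In bulk RNA, a change in the number of cells of a type and a change in RNA per cell cannot be told apart.

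Of the 53 members, 52 had enough counts to test. Orc1, the largest subunit of the origin recognition complex, did not, with 0 to 10 counts per library. Of the 52, Dtl and Exo1 had enough counts only through the LCDD libraries, where they are high. Both enter the means that follow. The mean log2 CPM over the 52 members was 3.23 ± 0.21 (SD, n = 4) in LCDD, 2.71 ± 0.04 (n = 4) in DH-LMP2A and 2.65 ± 0.11 (n = 5) in WT. The LCDD libraries lay between 3.04 and 3.42, above the highest DH-LMP2A library (2.74) and the highest WT library (2.78).

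LCDD against DH-LMP2A asks what the LCDD genotype adds to its genetic background. In LCDD, 10 of 52 members rose at an adjusted p under 0.05, against 1.30% of all 16738 genes tested in that direction. They were Orc6, Cdc6 and Mcm6 in licensing, Rrm2 in nucleotide supply, Uhrf1 in chromatin, Brca1, Exo1, Dtl and Clspn in checkpoint and repair, and the transcription factor E2f7. Of these, Dtl and Exo1 were tested only through their LCDD counts, and both enter the counts given here. No member passed as lower, where 0.693% of all genes did. In this edgeR fit 0 members were lower even at an unadjusted p under 0.05. At that level 21 members were higher, beside 2193 of the 16738 genes in either direction. DESeq2 called 12 members higher and 0 lower, beside 486 and 326 of the 16738 genes. The fold change was positive in 44 of 52 members, with a median log2 value of 0.33, against 49% of all genes and a median of -0.01. The libraries of the genotypes did not overlap for 16 members, each LCDD library being above each DH-LMP2A library, as for 4.74% of all genes. Leaving out 1 library lowered the count of 10 to 3 (LCDD replicate 1 or 2, DH-LMP2A replicate 3 or 4), 4 (DH-LMP2A replicate 2), 6 (DH-LMP2A replicate 1) or 7 (LCDD replicate 3 or 4), and Mcm6, Dtl and Clspn passed each time.

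On average, libraries with the same code deviated together from their group means in LCDD and DH-LMP2A (mean correlation 0.421). The mean between codes was -0.139. It adds no separate evidence, since deviations from a group mean cancel out, which ties it to the same-code mean. Some pairs of different codes also deviated together, up to 0.524. With the code as a block, 14 members rose, against 3.24% of all genes, and 0 fell, against 2.86%. At an unadjusted p under 0.05, 25 were higher and 2 lower in this fit. The block added Gins2 (adjusted p = 0.0364), Tk1 (adjusted p = 0.0412), Prim2 (adjusted p = 0.0457) and Tipin (adjusted p = 0.0305) and lost no member.

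LCDD against WT used the same 4 LCDD libraries, so the comparisons are not independent of each other. Here 10 members rose, against 1.30% of all genes, and 0 fell, against 0.544%. They were Cdc6, Mcm10, Gins2, Rrm2, Tk1, Uhrf1, Brca1, Exo1, Dtl and Clspn. Again Dtl and Exo1, tested only through their LCDD counts, enter the counts given here. By edgeR 0 members were lower at an unadjusted p under 0.05. At that level 22 members were higher, beside 2002 of the 16738 genes in either direction. DESeq2 called 13 members higher and 0 lower, beside 431 and 295 of the 16738 genes. The fold change was positive in 48 of 52 members with a median log2 value of 0.33, against 51.7% of all genes and a median of 0.01. For 14 members every LCDD library was above every WT library, as for 2.97% of all genes. For 9 members every LCDD library was above all 9 libraries of the other genotypes, as for 1.56% of genes. Leaving out LCDD replicate 1 or 2, or WT replicate 4 or 5, lowered the count to 6, and leaving out WT replicate 3 lowered it to 5.

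Markers of sex moved with the WT comparison. The 4 Y-linked genes summed to 18.0 to 220.2 CPM in LCDD and 68.3 to 222.8 CPM in DH-LMP2A, but to 0 to 27.0 CPM in WT. With the Y-linked level as a covariate, 0 members passed by edgeR against WT (13 were higher at an unadjusted p under 0.05), and 9 passed against DH-LMP2A. In that fit 9 genes in all passed as higher and 14 as lower against WT. Dtl, for example, kept a log2 fold change of 3.51 with an SE of 0.89 in place of 0.43. Since 4 of the 5 WT libraries held 0 to 0.0811 CPM of Y-linked RNA, genotype and the sex of the mice cannot be told apart in the comparisons of LCDD or DH-LMP2A with WT. Without the 3 single-mouse WT libraries, 0 members passed against WT (15 were higher at an unadjusted p under 0.05), although 45 of 52 were positive.

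**Figure D1:**
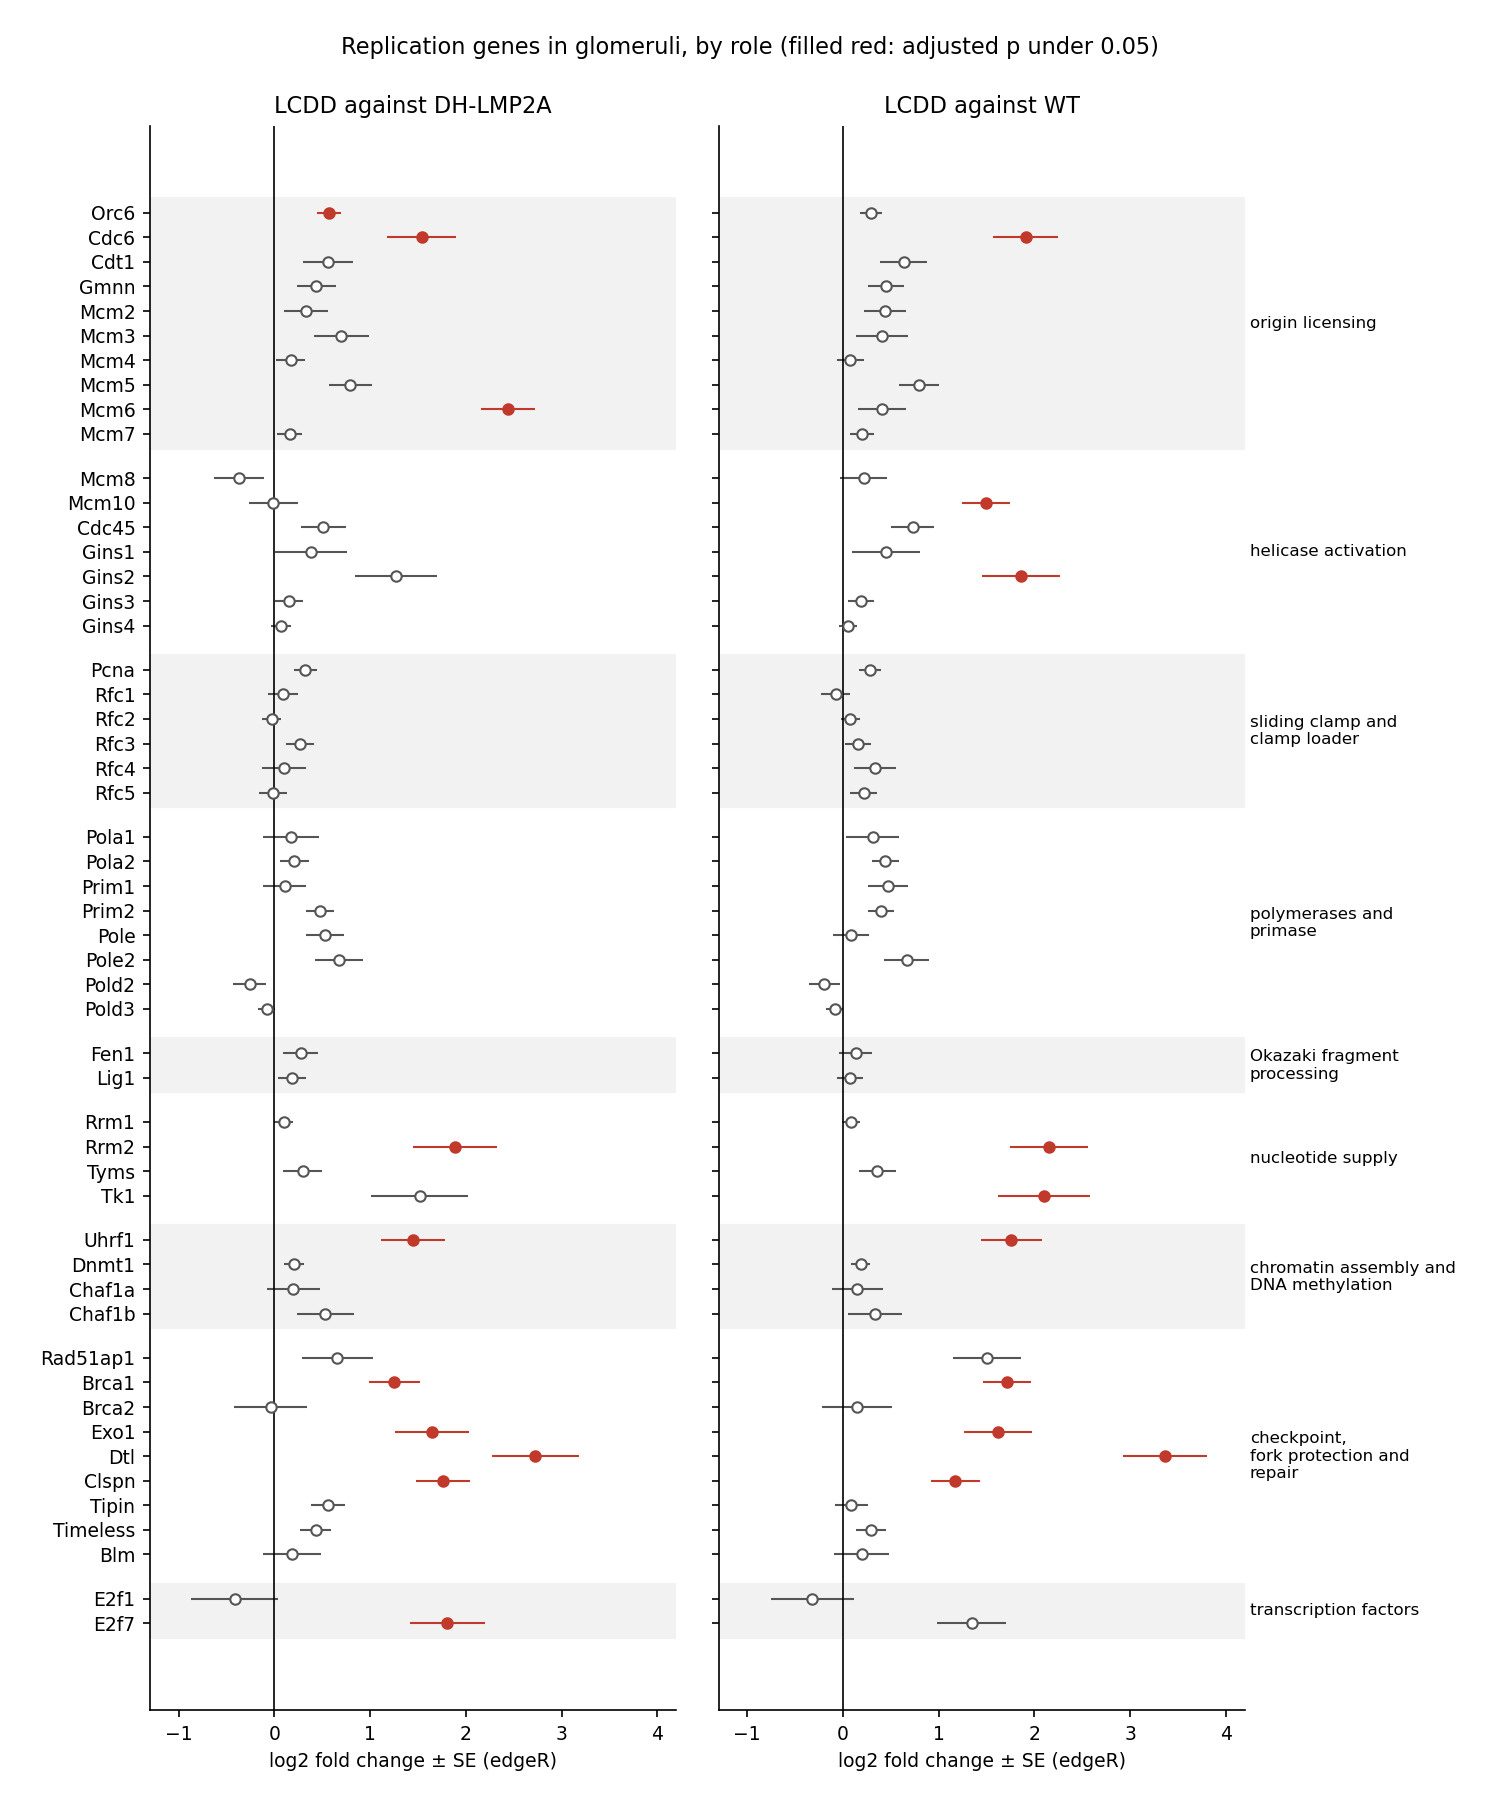
Log2 fold change with its standard error (horizontal axis) for each of the 52 tested members (rows, grouped by role), for LCDD against DH-LMP2A on the left and LCDD against WT on the right. Filled red points passed at an adjusted p under 0.05; the 10 red points on each side all lie to the right of 0, and most clamp, clamp loader and polymerase genes lie near it.

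Against both other genotypes, 7 members passed: Cdc6, Rrm2, Uhrf1, Brca1, Exo1, Dtl and Clspn. These are 7 of 52 members, against 0.741% of all genes. Of the 7, Dtl and Exo1 had enough counts to test only through the LCDD libraries, where they are high. In either comparison, 13 members passed. Of the 16738 genes, 218 passed as higher against DH-LMP2A, 217 against WT and 124 against both. DH-LMP2A against WT showed 1 member higher, Mcm10, where 0.275% of all genes passed, and 1 lower, Mcm6, where 0.352% did. At an unadjusted p under 0.05, 3 members were higher and 5 lower, beside 2085 of the 16738 genes in either direction. The 5 lower were Orc6, Mcm6, Pole, Clspn and Tipin. Of these, Orc6, Mcm6 and Clspn also passed as higher in LCDD against DH-LMP2A. The median log2 fold change of the members for DH-LMP2A against WT was 0.03, and 29 of 52 were positive.

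Among the licensing genes, Cdc6 (chromosome 11, 98907801 to 98923940, plus strand), which loads the helicase together with CDT1, rose against both. Its levels were 2.07, 1.66, 1.51 and 1.06 CPM in LCDD replicates 1 to 4, 0.711, 0.408, 0.400 and 0.627 CPM in DH-LMP2A, and 0.647, 0.556, 0.240, 0.358 and 0.284 CPM in WT. Every LCDD library was above every other library. The log2 fold change was 1.54 ± 0.36 (SE) against DH-LMP2A (adjusted p = 0.0484) and 1.91 ± 0.34 against WT (adjusted p = 0.0121). These levels rest on 6 to 54 counts per library.

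Mcm6 (chromosome 1, 128331590 to 128359664, minus strand), a subunit of the helicase ring, followed another pattern. It stood at 26.5, 34.4, 17.9 and 18.7 CPM in LCDD, 5.95, 4.70, 3.94 and 3.36 CPM in DH-LMP2A, and 25.0, 21.9, 14.9, 12.6 and 17.5 CPM in WT. DH-LMP2A was low in all 4 libraries, apart from both other genotypes, while LCDD and WT overlapped. Its log2 fold change was 2.44 ± 0.28 for LCDD against DH-LMP2A (adjusted p = 0.00075), -2.03 ± 0.27 for DH-LMP2A against WT (adjusted p = 0.0044) and 0.41 ± 0.25 for LCDD against WT (adjusted p = 0.599). None of the 12 genes tested within 1 Mb on either side passed in any of the 3 comparisons.

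No other ring subunit shared a drop of this size. Mcm4 was at 36.2, 36.8, 25.6 and 28.6 CPM in LCDD, 25.5, 32.1, 25.7 and 29.8 CPM in DH-LMP2A, and 27.1, 24.4, 33.6, 31.1 and 34.3 CPM in WT, with overlap of all 3 genotypes. Its log2 fold change against DH-LMP2A was 0.17 ± 0.15 (adjusted p = 0.709). Mcm5 gave 0.79 ± 0.22 against DH-LMP2A (adjusted p = 0.0953) and 0.79 ± 0.21 against WT (adjusted p = 0.0817), missing the threshold in both by edgeR, and DESeq2 called it higher in both (adjusted p = 0.0276 and 0.0201). Mcm2, Mcm3 and Mcm7 gave 0.33, 0.70 and 0.16 against DH-LMP2A, with adjusted p from 0.301 to 0.682. For DH-LMP2A against WT the other 5 subunits ran from -0.29 (Mcm3) to 0.11 (Mcm2), and none passed. Mcm3 was at 39.0, 22.3, 22.4 and 16.6 CPM in DH-LMP2A and 25.0 to 39.6 CPM in WT. All but DH-LMP2A replicate 1 thus lay under every WT library. With the code as a block, Mcm3 gave -0.56 ± 0.19 (adjusted p = 0.123). So in DH-LMP2A glomeruli Mcm6 was the 1 ring subunit that passed as lower.

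Orc6, another origin recognition subunit, was at 14.3 to 15.5 CPM in LCDD, 9.09 to 11.9 CPM in DH-LMP2A and 11.3 to 13.7 CPM in WT. It rose by 0.57 ± 0.12 on the log2 scale against DH-LMP2A (adjusted p = 0.0351), the smallest change among the members that passed. Against WT it gave 0.29 ± 0.12 (adjusted p = 0.30). Cdt1, the loader, and Gmnn, its inhibitor geminin, gave 0.56 ± 0.26 and 0.44 ± 0.20 against DH-LMP2A and missed the threshold (adjusted p = 0.381 and 0.383).

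**Figure D2:**
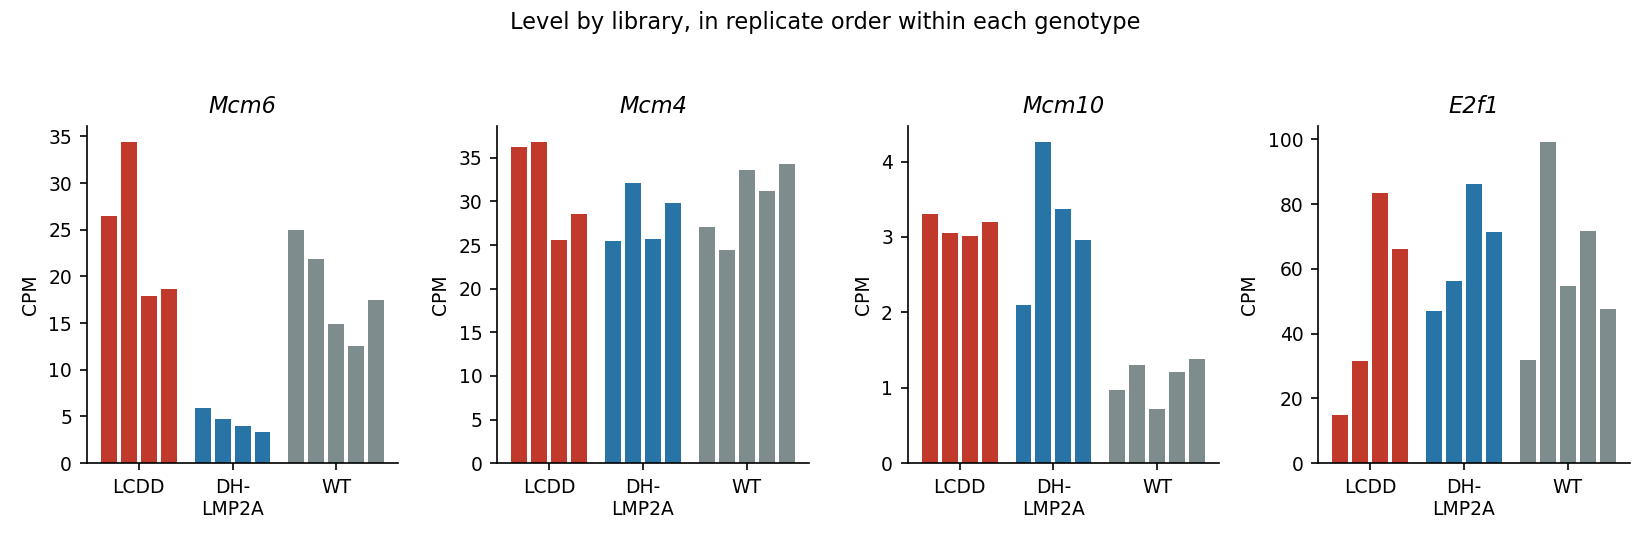
CPM (vertical axes, from 0) in each library, in replicate order within LCDD (red), DH-LMP2A (blue) and WT (grey), for Mcm6, Mcm4, Mcm10 and E2f1. Mcm6 is at 3.36 to 5.95 CPM in DH-LMP2A and at least 12.6 CPM elsewhere, Mcm10 is at most 1.38 CPM in WT and at least 2.10 CPM elsewhere, and Mcm4 and E2f1 overlap.

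Helicase activation genes were split. Mcm10, a scaffold that helps start the helicase, had 3.30, 3.05, 3.02 and 3.19 CPM in LCDD, 2.10, 4.26, 3.37 and 2.95 CPM in DH-LMP2A, and 0.971, 1.30, 0.721, 1.21 and 1.38 CPM in WT. WT was low in all 5 libraries, and LCDD and DH-LMP2A overlapped. The log2 fold change was 1.49 ± 0.25 for LCDD against WT (adjusted p = 0.00774), 1.51 ± 0.25 for DH-LMP2A against WT (adjusted p = 0.0185) and -0.01 ± 0.25 for LCDD against DH-LMP2A. With the Y-linked level as a covariate, neither Mcm10 difference from WT passed (adjusted p = 0.476 for LCDD and 0.516 for DH-LMP2A), nor did that of Mcm6 between DH-LMP2A and WT (adjusted p = 0.0994). Of 16 genes tested within 1 Mb of Mcm10, 0 passed against WT in either genotype and 1 passed for LCDD against DH-LMP2A.

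Gins2, a GINS subunit, was at 3.15, 2.97, 1.35 and 1.18 CPM in LCDD, 1.31, 0.963, 0.514 and 0.761 CPM in DH-LMP2A, and 0.841, 0.309, 0.521, 0.403 and 0.852 CPM in WT. LCDD replicates 1 and 2 were the highest and LCDD replicate 4 fell below the highest DH-LMP2A library. The log2 fold change was 1.86 ± 0.41 against WT (adjusted p = 0.0362) and 1.27 ± 0.43 against DH-LMP2A (adjusted p = 0.182). Gins2 shares 2758 exonic bases with Gse1 on the opposite strand, and the strand setting of the counting is not given, so its level is uncertain. Gins3 and Gins4, of the same complex, gave 0.15 ± 0.14 and 0.07 ± 0.10 against DH-LMP2A. Gins1 gave 0.38 ± 0.38, and Cdc45, the helicase cofactor, 0.51 ± 0.24 against DH-LMP2A and 0.73 ± 0.23 against WT (adjusted p = 0.149). Mcm8, a helicase of repair, was the member with the lowest value of this role against DH-LMP2A, at -0.37 ± 0.26.

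The sliding clamp and its loader gave no member that passed, by edgeR or DESeq2, in any comparison, and 1 of 6, Pcna, had an unadjusted p under 0.05 in each LCDD comparison. Of all 16738 genes, 2193 were under that level against DH-LMP2A and 2002 against WT. Pcna, the clamp, had the highest level per length of all members, with a mean of 29.3 CPM per kb of exon over the 13 libraries. It was at 93.9, 90.4, 63.3 and 76.0 CPM in LCDD, 72.4, 59.8, 61.1 and 65.2 CPM in DH-LMP2A, and 69.4, 64.9, 62.0, 70.3 and 66.1 CPM in WT. LCDD replicates 1, 2 and 4 were above every other library, and replicate 3 lay among the other genotypes. Its log2 fold change was 0.32 ± 0.12 against DH-LMP2A (adjusted p = 0.236) and 0.28 ± 0.11 against WT (adjusted p = 0.31). Rfc5, a loader subunit, was at 9.36, 10.9, 8.56 and 9.31 CPM in LCDD, 9.05, 9.34, 11.1 and 9.0 CPM in DH-LMP2A, and 8.22, 9.70, 7.13, 7.16 and 8.80 CPM in WT. Its difference against DH-LMP2A was -0.01 ± 0.15, and Rfc1 to Rfc4 ran from -0.03 to 0.26.

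None of the 8 polymerase and primase genes passed by edgeR, and 6 had a positive value against DH-LMP2A. At an unadjusted p under 0.05 there were 3 against DH-LMP2A and 4 against WT, beside 2193 and 2002 of the 16738 genes. DESeq2 called 1 and 0 of the 8. Prim2, the large primase subunit, was at 9.36, 9.07, 8.24 and 9.03 CPM in LCDD, 5.76, 6.22, 6.11 and 7.52 CPM in DH-LMP2A, and 6.47, 5.81, 6.85, 7.38 and 7.38 CPM in WT. All 4 LCDD libraries were above all others, by 0.48 ± 0.14 against DH-LMP2A (adjusted p = 0.125) and 0.40 ± 0.14 against WT (adjusted p = 0.204). Prim1, the catalytic subunit, was at 10.7, 7.0, 6.63 and 6.35 CPM in LCDD, 6.36, 7.22, 6.28 and 8.55 CPM in DH-LMP2A, and 7.67, 4.14, 4.96, 5.59 and 5.23 CPM in WT. It overlapped across the genotypes, with 0.11 ± 0.23 against DH-LMP2A. Pole and Pole2, of the leading-strand polymerase, gave 0.53 ± 0.20 and 0.67 ± 0.25 against DH-LMP2A (adjusted p = 0.239 and 0.24). For LCDD against WT they gave 0.08 ± 0.19 and 0.67 ± 0.24, and for DH-LMP2A against WT -0.44 ± 0.19 and -0.01 ± 0.24. Pold2 and Pold3, of the lagging-strand polymerase, gave -0.26 ± 0.17 and -0.08 ± 0.09 for LCDD against DH-LMP2A. Pola1 and Pola2, of the priming polymerase, gave 0.17 ± 0.29 and 0.21 ± 0.15.

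The Okazaki fragment enzymes gave small differences. Fen1, the flap nuclease, was at 11.5, 10.8, 9.26 and 6.43 CPM in LCDD, 8.57, 7.85, 7.25 and 7.74 CPM in DH-LMP2A, and 8.44, 9.45, 7.01, 8.99 and 9.49 CPM in WT. Lig1, the ligase that seals the fragments, was at 15.2, 20.8, 16.4 and 18.2 CPM in LCDD, 13.4, 16.4, 18.1 and 14.2 CPM in DH-LMP2A, and 14.8, 20.3, 15.8, 15.1 and 18.0 CPM in WT. Both overlapped across all genotypes, with 0.28 ± 0.18 and 0.18 ± 0.15 against DH-LMP2A.

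Nucleotide supply genes differed between the subunits of 1 enzyme. Rrm2, the small subunit of ribonucleotide reductase whose level limits the enzyme outside S phase, was at 10.4, 4.48, 2.53 and 2.84 CPM in LCDD, 1.98, 1.0, 1.14 and 1.34 CPM in DH-LMP2A, and 1.39, 1.05, 0.681, 1.34 and 1.22 CPM in WT. Every LCDD library was above every other, and LCDD replicate 1 was far above the other LCDD libraries. Rrm2 rose by 1.89 ± 0.44 on the log2 scale against DH-LMP2A (adjusted p = 0.0469) and 2.15 ± 0.41 against WT (adjusted p = 0.0167).

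Rrm1, the large subunit, was at 46.1, 43.4, 37.8 and 43.0 CPM in LCDD, 37.0, 42.1, 37.3 and 42.9 CPM in DH-LMP2A, and 36.0, 37.3, 41.4, 43.8 and 42.3 CPM in WT. The genotypes overlapped, with 0.10 ± 0.10 against DH-LMP2A and 0.08 ± 0.09 against WT. Tk1, which salvages thymidine, was at 3.08 to 9.48 CPM in LCDD, 1.37 to 3.33 CPM in DH-LMP2A and 0.360 to 2.16 CPM in WT. It rose by 2.10 ± 0.48 against WT (adjusted p = 0.0426) and gave 1.52 ± 0.50 against DH-LMP2A (adjusted p = 0.171). Tyms, which makes thymidylate, gave 0.29 ± 0.20 and 0.36 ± 0.19.

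In chromatin assembly and DNA methylation, Uhrf1 (chromosome 17, 56303321 to 56323486, plus strand), which brings the maintenance methyltransferase to new DNA, rose against both. It was at 9.71, 6.85, 5.55 and 4.06 CPM in LCDD, 3.07, 2.30, 1.66 and 2.55 CPM in DH-LMP2A, and 1.78, 3.34, 1.56, 1.34 and 1.70 CPM in WT. No other library reached the lowest LCDD library. Uhrf1 rose by 1.45 ± 0.34 on the log2 scale against DH-LMP2A (adjusted p = 0.0472) and 1.76 ± 0.32 against WT (adjusted p = 0.0121). Its partner Dnmt1, at 55.6 to 80.2 CPM over all libraries, gave 0.21 ± 0.10 against DH-LMP2A (adjusted p = 0.431). Chaf1a, a histone chaperone subunit, was at 5.22, 7.15, 3.55 and 3.00 CPM in LCDD, 3.67, 5.11, 3.71 and 4.03 CPM in DH-LMP2A, and 3.62, 6.05, 3.96, 3.67 and 4.06 CPM in WT, with 0.20 ± 0.28. Chaf1b, of the same chaperone, gave 0.53 ± 0.30 (adjusted p = 0.496).

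Checkpoint and repair held the most members that passed, 4 of 9 in each comparison. Dtl (chromosome 1, 191537356 to 191575544, minus strand) encodes the receptor of a ubiquitin ligase that destroys CDT1 at replicating DNA. It was at 3.49, 2.37, 1.72 and 1.5 CPM in LCDD, 0.412, 0.333, 0.343 and 0.269 CPM in DH-LMP2A, and 0.388, 0.124, 0.240, 0.0447 and 0.243 CPM in WT. The lowest LCDD library, replicate 4, was far above the highest of the others, DH-LMP2A replicate 1. Dtl had the largest change among the members, 2.72 ± 0.45 against DH-LMP2A (adjusted p = 0.00901) and 3.36 ± 0.43 against WT (adjusted p = 0.00174). The low levels rest on 1 to 12 counts per library outside LCDD, against 32 to 91 in LCDD. With DH-LMP2A and WT fitted alone, 50 members had enough counts to test, and Dtl and Exo1 did not. Both were thus tested only through their LCDD counts.

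Clspn, the adaptor claspin of the replication checkpoint, was at 3.61, 3.88, 2.69 and 2.25 CPM in LCDD, 1.16, 0.852, 0.971 and 0.671 CPM in DH-LMP2A, and 1.26, 1.48, 0.921, 1.52 and 1.70 CPM in WT. The LCDD libraries were all above the others. Its log2 fold change was 1.76 ± 0.28 against DH-LMP2A (adjusted p = 0.00698) and 1.17 ± 0.25 against WT (adjusted p = 0.0331). Brca1, of homologous recombination, was at 4.14, 2.56, 2.96 and 2.48 CPM in LCDD, 1.05, 1.22, 1.54 and 1.30 CPM in DH-LMP2A, and 1.0, 0.556, 1.16, 0.895 and 0.973 CPM in WT. It rose by 1.25 ± 0.27 against DH-LMP2A (adjusted p = 0.0319) and 1.71 ± 0.25 against WT (adjusted p = 0.00414), with no overlap.

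Exo1, a nuclease of mismatch repair, was at 1.46, 1.17, 0.970 and 1.06 CPM in LCDD, 0.374, 0.482, 0.343 and 0.269 CPM in DH-LMP2A, and 0.324, 0.494, 0.160, 0.268 and 0.649 CPM in WT. The LCDD libraries were above all others, by 1.65 ± 0.38 on the log2 scale against DH-LMP2A (adjusted p = 0.0472) and 1.62 ± 0.36 against WT (adjusted p = 0.0362). Brca2, the partner of Brca1 in recombination, was at 4.11, 5.12, 7.16 and 5.05 CPM in LCDD, 2.36, 6.89, 5.60 and 7.16 CPM in DH-LMP2A, and 3.62, 2.16, 7.13, 5.68 and 5.52 CPM in WT, overlapping throughout. Its difference against DH-LMP2A was -0.04 ± 0.38. Rad51ap1, an accessory factor of recombination, gave 1.51 ± 0.36 against WT (adjusted p = 0.0531) and 0.66 ± 0.37 against DH-LMP2A. Tipin and Timeless, which form the fork protection complex, gave 0.56 ± 0.18 and 0.43 ± 0.17 against DH-LMP2A (adjusted p = 0.153 and 0.26). For LCDD against WT they gave only 0.09 ± 0.17 and 0.29 ± 0.16. For DH-LMP2A against WT they gave -0.47 ± 0.17 and -0.14 ± 0.16. The helicase Blm gave 0.18 ± 0.30 for LCDD against DH-LMP2A.

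Of the transcription factors, E2f7 passed and E2f1 did not. E2f7, an E2F of the repressor kind, was at 4.83, 4.70, 2.42 and 3.19 CPM in LCDD, 0.898, 1.41, 1.03 and 0.985 CPM in DH-LMP2A, and 2.56, 0.865, 0.921, 0.984 and 2.07 CPM in WT. LCDD was above DH-LMP2A in every library and overlapped WT replicate 1. It rose by 1.81 ± 0.39 against DH-LMP2A (adjusted p = 0.0342) and gave 1.34 ± 0.36 against WT (adjusted p = 0.0854).

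E2f1, an E2F of the activator kind, was at 14.8, 31.5, 83.3 and 66.1 CPM in LCDD, 47.1, 56.3, 86.3 and 71.3 CPM in DH-LMP2A, and 31.9, 99.2, 54.8, 71.7 and 47.6 CPM in WT. It was lowest under code NS161202 in each genotype. Its difference against DH-LMP2A was -0.42 ± 0.46 (adjusted p = 0.768), the lowest of the 52 members. The podocyte markers were also lowest under NS161202: they summed to 6880, 12587, 29677 and 24674 CPM in LCDD, 15337, 19932, 30274 and 29262 CPM in DH-LMP2A, and 14385, 31477, 30354, 32368 and 23833 CPM in WT. Whether E2f1 follows the podocyte share was not tested.

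**Figure D3:**
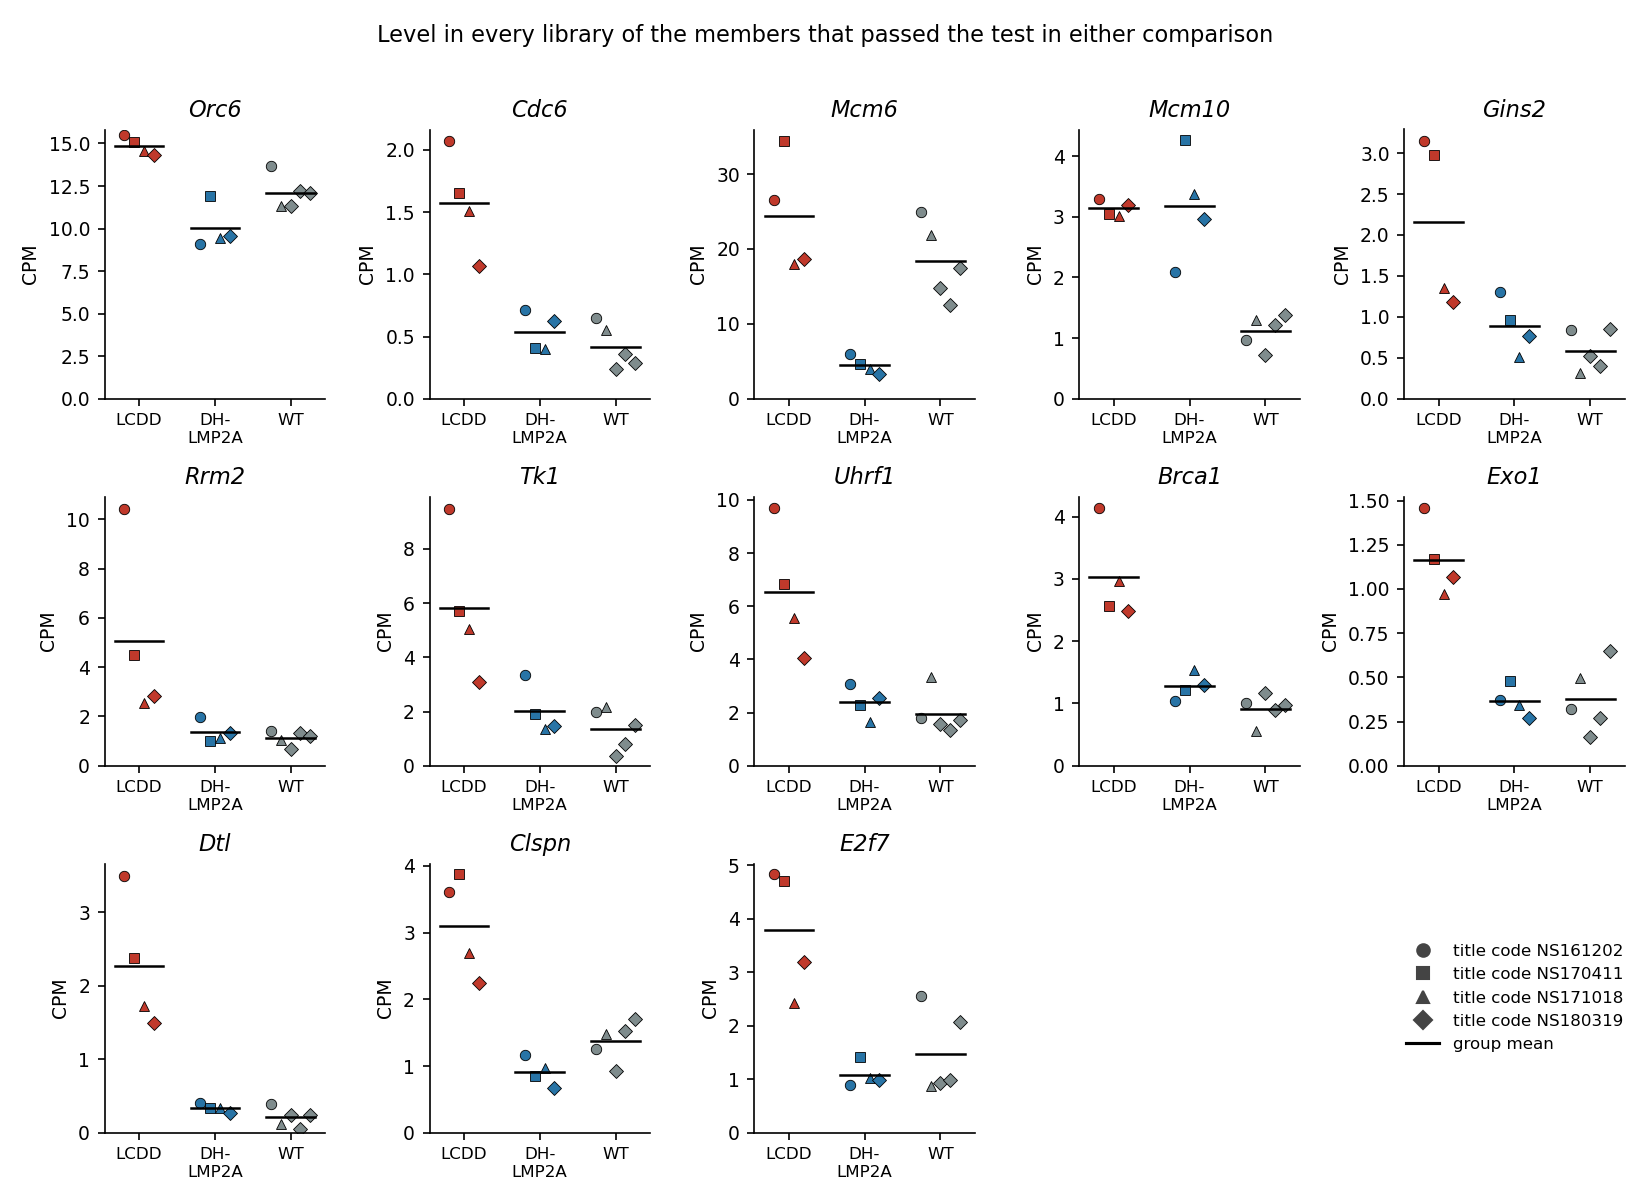
CPM (vertical axes, from 0) in every library for the 13 members that passed in either LCDD comparison; each point is 1 library, its shape the title code, and the bar the group mean. For Cdc6, Rrm2, Uhrf1, Brca1, Exo1, Dtl and Clspn every LCDD point lies above every other point, while Mcm6 is low in DH-LMP2A and Mcm10 low in WT.

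The members that passed were mostly the scarce ones. Levels between genes were compared as CPM per kb of exon, averaged over all 13 libraries, and split at 1 CPM per kb, a value chosen after the levels were seen. Below it, 8 of 16 members passed against DH-LMP2A (50%) and 10 of 16 against WT (62.5%), beside 2.30% and 2.76% of all genes at that level. At or above it, 2 of 36 members passed against DH-LMP2A, Orc6 and Mcm6, and 0 of 36 against WT, beside 1.02% and 0.881% of all genes. The median log2 fold change below 1 CPM per kb was 1.36 against DH-LMP2A and 1.56 against WT, and above it 0.24 and 0.25. Dtl, Exo1, Cdc6 and Brca1 were at 0.0644, 0.0733, 0.155 and 0.197 CPM per kb, and Pcna, E2f1 and Gins4 at 29.3, 18.6 and 14.4. Dtl and Exo1 were tested only through their LCDD counts, which also enter these averaged levels. The CPM summed over the 53 members, to which the scarce members add little, was 748.0 ± 16.5 in DH-LMP2A, 771.7 ± 30.7 in WT and 888.2 ± 72.7 in LCDD (SD).

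**Figure D4:**
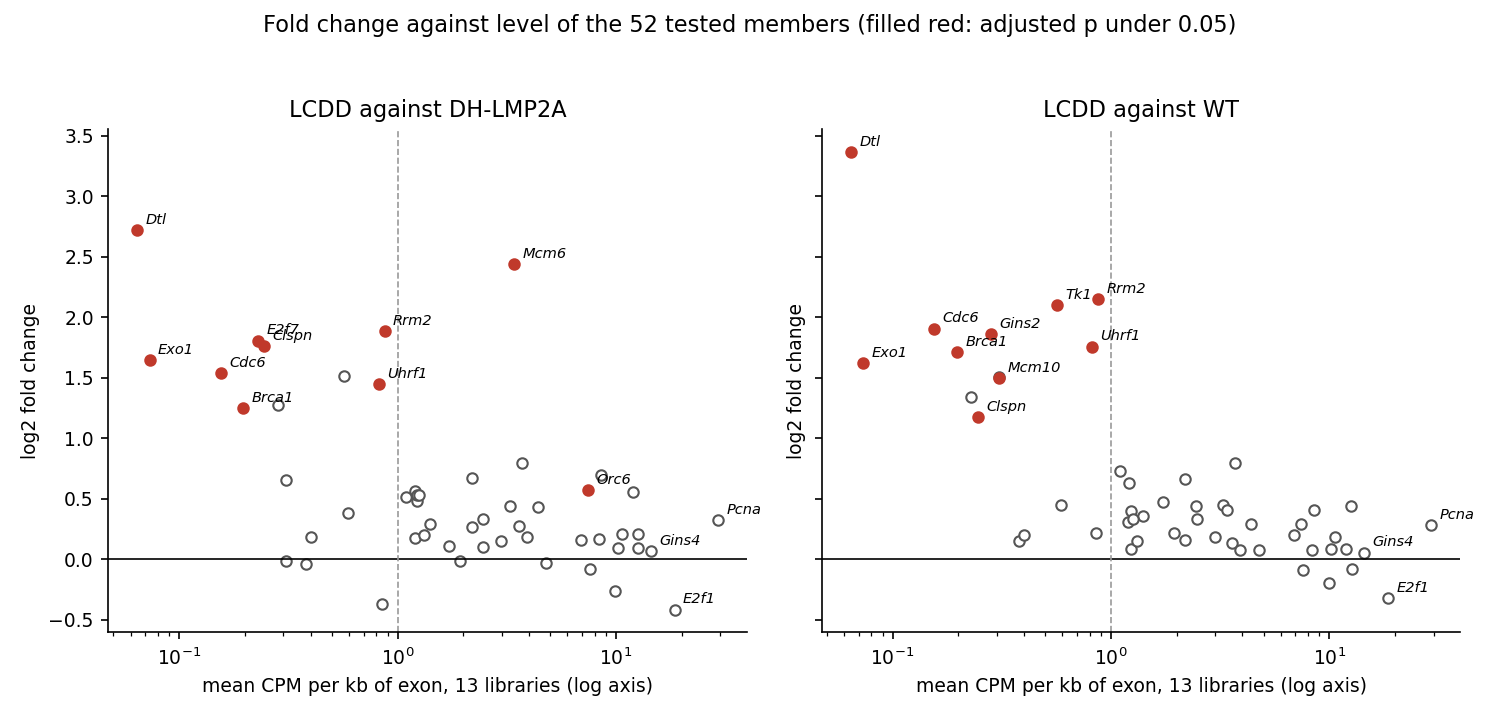
Log2 fold change (vertical axis) against mean CPM per kb of exon over 13 libraries (horizontal log axis) for the 52 tested members, for LCDD against DH-LMP2A on the left and against WT on the right. Filled red points passed at an adjusted p under 0.05; right of the dashed line at 1 CPM per kb only Orc6 and Mcm6 are red, both on the left panel.

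The rise was seen under each code but not to the same extent. LCDD was above DH-LMP2A for 48, 44, 35 and 36 of the 52 members under codes NS161202, NS170411, NS171018 and NS180319. The median differences in log2 CPM were 0.50, 0.48, 0.19 and 0.22, beside medians of all genes between -0.02 and 0.00. Under all 4 codes LCDD was above DH-LMP2A for 28 of 52 members, against 17.6% of all genes. Against WT, LCDD was higher for 46, 36 and 38 members under NS161202, NS171018 and NS180319, with medians of 0.44, 0.27 and 0.22. LCDD replicates 1 and 2, of codes NS161202 and NS170411, held the highest LCDD value for 26 and 19 of the 53 members. Without the libraries of those codes, only Mcm6 passed against DH-LMP2A and only Dtl against WT, with 2 LCDD and 2 DH-LMP2A libraries left.

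Macrophage markers, of a cell type other than the resident glomerular cells, summed to 144.8, 223.5, 87.1 and 85.9 CPM in LCDD, 183.0, 78.3, 67.8 and 76.6 CPM in DH-LMP2A, and 197.9, 279.7, 77.7, 86.7 and 100.5 CPM in WT. The 2 highest LCDD sums were under the codes with the larger member differences. DH-LMP2A replicate 1 and WT replicates 1 and 2 had sums above that of LCDD replicate 1. The fold change was positive for 8 of 8 macrophage markers against DH-LMP2A (median log2 value 0.65) and for 2 of 8 against WT (median -0.60). None of the 8 passed in either LCDD comparison by edgeR or DESeq2, and 0 had an unadjusted p under 0.05. T and NK cell markers summed to 3.18 to 10.6 CPM and B and plasma cell markers to 5.60 to 44.9 CPM over all libraries.

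Markers of resident cells differed in direction. Podocyte markers were positive in 0 of 7 in both LCDD comparisons, with median log2 values of -0.42 against DH-LMP2A and -0.51 against WT. By edgeR 0 of them passed as lower against DH-LMP2A and 1 against WT, and with the code as a block 2 passed as lower against DH-LMP2A. Mesangial markers, of the cells that hold the capillary loops together, summed to 4558, 3302, 3044 and 3621 CPM in LCDD, 2755, 2534, 2569 and 2403 CPM in DH-LMP2A, and 2439, 2635, 3214, 3042 and 3178 CPM in WT. LCDD lay above DH-LMP2A in every library and overlapped WT. Of the 6 mesangial markers, 1 passed as higher in each LCDD comparison, Art3, with 0.97 ± 0.19 against DH-LMP2A (adjusted p = 0.0196) and 1.12 ± 0.18 against WT (adjusted p = 0.00636). At an unadjusted p under 0.05, 4 were higher and 1 lower against DH-LMP2A and 2 higher and 1 lower against WT. With the code as a block, 2 passed as higher and 1 as lower against DH-LMP2A. Log2 fold changes of the 6 ran from -1.18 to 0.97 against DH-LMP2A and from -0.85 to 1.12 against WT. Glomerular endothelial markers summed to 9747, 10922, 5443 and 4585 CPM in LCDD, 8586, 5481, 4007 and 3190 CPM in DH-LMP2A, and 9583, 6672, 8571, 7543 and 10971 CPM in WT. Their sums in LCDD were higher in replicates 1 and 2, which also held most of the highest LCDD values of the members. None of the 6 endothelial markers passed in either LCDD comparison by edgeR or DESeq2, and 0 had an unadjusted p under 0.05, with 6 positive against DH-LMP2A (median 0.52) and 1 against WT (median -0.31). The part of macrophage, mesangial or endothelial RNA in the rise of the members was not tested.

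**Figure D5:**
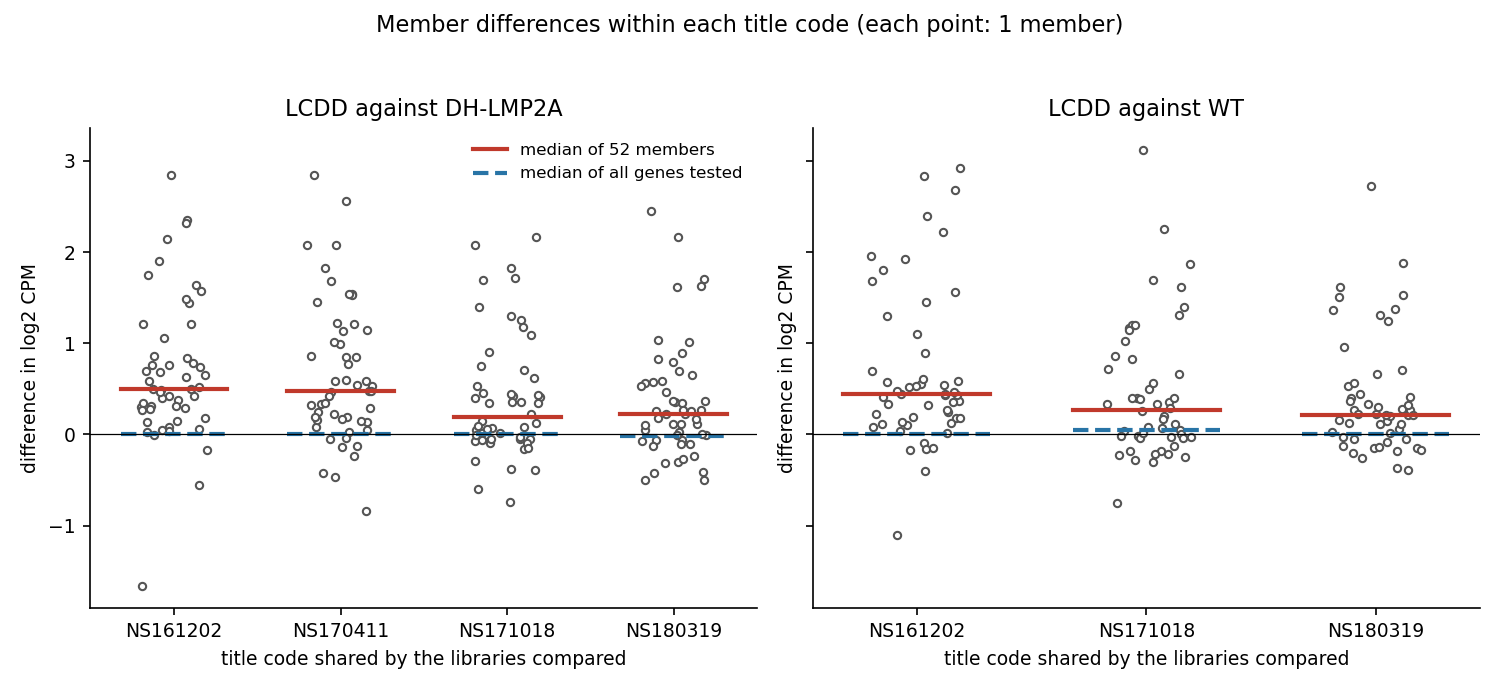
Difference in log2 CPM (vertical axis) between the LCDD library and the DH-LMP2A (left) or WT (right) library or libraries of the same title code (horizontal axis); each point is 1 of 52 members, red bars are member medians and dashed blue bars medians of all genes tested. The red bars run from 0.19 to 0.50 on the left and from 0.22 to 0.44 on the right, above the blue bars under each code.

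Other genes of the same processes were taken from lists of genes that are not members. Of all 16738 genes, 1.30% passed as higher in each LCDD comparison. At an unadjusted p under 0.05 there were 2193 genes against DH-LMP2A and 2002 against WT. Of 28 other tested genes of the replication machinery, 0 passed in either LCDD comparison, with median log2 fold changes of 0.06 against DH-LMP2A and 0.04 against WT. At an unadjusted p under 0.05 there were 2 and 4 of them, and DESeq2 called 0 higher and 1 lower against DH-LMP2A and 2 higher against WT. The 14 other nucleotide metabolism genes gave 0 in both by edgeR and by DESeq2, with 1 at an unadjusted p under 0.05 in each. Of 9 other chromatin assembly genes, Cdca7 passed against WT (1.05 ± 0.24, adjusted p = 0.0457). In each LCDD comparison 4 of the 9 were higher at an unadjusted p under 0.05, and DESeq2 called 1 higher. Of 27 other checkpoint and repair genes, 1 passed against DH-LMP2A and 3 against WT, Rad54l and Chek1 among the latter, and 14 and 17 were positive, with medians of 0.08 and 0.11. At an unadjusted p under 0.05, 6 and 8 of the 27 were higher, and DESeq2 called 1 and 5 higher. Of 15 E2F, RB and S-phase cyclin genes, the S-phase cyclin Ccna2 (2.06 ± 0.42 and 2.42 ± 0.39) and E2f8 (2.23 ± 0.46 and 2.25 ± 0.43) passed in both.

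Mitosis genes moved more than the replication members. Of 20, 13 rose against DH-LMP2A and 16 against WT, beside 1.30% of all genes in each comparison. None of the 20 fell, and the medians were 2.05 and 2.01. Mki67, the proliferation marker, was at 30.6 ± 5.6 CPM in LCDD (SD, n = 4), 4.99 ± 1.40 in DH-LMP2A (n = 4) and 6.17 ± 2.72 in WT (n = 5). Top2a, which untangles replicated DNA, was at 25.0 ± 13 CPM in LCDD, 3.90 ± 1.27 in DH-LMP2A and 4.05 ± 0.58 in WT. Foxm1, a factor of mitotic transcription, rose by 1.65 ± 0.19 on the log2 scale against WT (adjusted p = 0.000698) and gave 0.80 ± 0.20 against DH-LMP2A (adjusted p = 0.0629). Ccnb2, a mitotic cyclin, rose by 2.55 ± 0.35 against WT (adjusted p = 0.00224) and 2.26 ± 0.37 against DH-LMP2A (adjusted p = 0.00821).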

How the data were processed

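The 53 members, their roles and the other gene lists were chosen with earlier results of these data known. RNA was sequenced from 13 glomerular libraries with a stranded paired-end poly(A) kit, per the labels' protocols. The authors deposited raw read counts per gene; the submitters' processing notes name STAR 2.4.0a, featureCounts, Subread 1.5.0-p3, DESeq2 and the builds mm10 and GRCm38, and the strand setting is not given in the sources used here. The deposited exon length served only for levels per kb. Coordinates are those of the deposited table, and all 53 members overlapped their GENCODE M21 span. Replicates are numbered in order of deposition within a genotype.

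Tests used edgeR 4.0.16 (R 4.3.3). Its filterByExpr filter, set to a minimum count of 10, passed 16738 genes, removed 30220 and retained at least 99.93% of counts per library. All 13 libraries entered 1 quasi-likelihood fit with TMM factors and a coefficient per genotype, with Benjamini-Hochberg adjustment of p over all genes tested. An adjusted p under 0.05 is called. SE was obtained from the fold change and the F statistic, and the prior count of log2 CPM was 2. The steps were tested on simulated data. The replicate block is the title code. Deviations from group means over genes correlated between same-code libraries by 0.153 to 0.593 for LCDD and DH-LMP2A (4 pairs, mean 0.421). Between different codes the range was -0.599 to 0.524 (12 pairs, mean -0.139). Deviations from a group mean cancel out, so this mean is tied to the same-code mean and is no separate evidence of pairing. LCDD replicate 2 correlated by 0.153 with DH-LMP2A replicate 2, of its own code, and by 0.524 with DH-LMP2A replicate 1. The code was taken to pair these libraries, although the ranges overlapped. For LCDD and WT the same-code range was -0.165 to 0.400 (mean 0.214, against -0.072 between codes). For DH-LMP2A and WT it was -0.159 to 0.568 (mean 0.298, against -0.091). These means went the same way as those of LCDD and DH-LMP2A, but the same-code ranges reached negative values. The code was not taken to pair LCDD with WT.

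Named in every library are the members with the smallest and the largest p of LCDD against DH-LMP2A in each role and those called in both LCDD comparisons; the rest are given by fold change. Of other lists, at most 4 genes with the smallest p are named. Alternatives were DESeq2 1.42.0, RLE size factors, no filter, only genes averaging 5 CPM or more, separate fits per pair of genotypes, the block, omitting each library in turn or the single-mouse WT libraries, Y-linked or tubule marker covariates, a minimum absolute log2 fold change of 1 and, added after seeing the data, leaving out codes NS161202 and NS170411. RefSeq promoters were matched by symbol, and 40 of the 51 windows continued into the sense strand of a GENCODE M21 transcript. Exons of some members overlap genes on the opposite strand, and besides Gins2 these include Tk1, which shares 83 exonic bases with Afmid. Rfc5 shares 499 with Wsb2, Fen1 1909 with Gm10143 and Chaf1a 620 with Ubxn6, among others. Protein sequences were not used here. A result for a gene of the list of other checkpoint and repair genes is not reported here.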

Additional observations from a re-analysis of the deposited data

Results flagged for a closer look

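Dixon's test at the 95% level was applied to 165 groups of 4 or 5 libraries, in which chance gives about 8.25 libraries that stand apart, and 7 were found. Pola1, the catalytic subunit of the priming polymerase, was at a log2 CPM of 2.12 in WT replicate 2, under the 3.28 to 3.72 of the other WT libraries. The same library was high for Pola2, at 5.36 against 4.74 to 4.90, and for Chaf1a, at 2.62 against 1.89 to 2.05. It was low for Pold3, at 4.84 against 5.04 to 5.05. WT replicate 1 was high for Tyms, at 3.40 against 2.76 to 2.92. DH-LMP2A replicate 4 was low for Mcm5, at 3.34, where the other DH-LMP2A libraries lay at 3.40. None of these 6 genes passed between genotypes by edgeR with all libraries. In the other settings Mcm5 passed in 3 of 18 against DH-LMP2A and 2 of 19 against WT, DESeq2 among them, and Pola2 in 1 of 19 against WT, without WT replicate 2 (adjusted p = 0.0413). The total of LCDD replicate 3, 18604929 counts, was under the 25276687 to 26544422 of the other LCDD libraries.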

How the results depend on the processing

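For LCDD against DH-LMP2A, the 10 members called higher became 4 with no filter, 2 with a mean of at least 5 CPM (31 members tested), 5 with only the compared genotypes, 4 without the single-mouse WT libraries, 1 without codes NS161202 and NS170411, and 3 to 7 leaving out 1 library. For LCDD against WT, the 10 became 0 with a mean of at least 5 CPM, 5 with only the compared genotypes, 0 without the single-mouse WT libraries, 0 with the Y-linked covariate, 1 without those codes, and 5 to 10 leaving out 1 library. For DH-LMP2A against WT, the 1 higher member became 0 with a mean of at least 5 CPM, the compared genotypes only, the single-mouse WT libraries or those codes left out, or the Y-linked covariate, and 0 to 1 leaving out 1 library; the 1 lower member became 0 with the Y-linked covariate and 2 with the tubule covariate. The cause of these shifts was not tested. The replicate block gave 14 members called higher against DH-LMP2A (543 of all genes tested). Against WT, where the code was not taken to pair the libraries, it gave 8 (343 genes). For DH-LMP2A against WT it gave 1 higher and 1 lower (297 and 265 genes). DESeq2 gave 12 and 13 higher (486 and 431 genes), RLE 8 and 10 (202 and 209 genes), and the tubule covariate 15 and 9 (652 and 233 genes). Against DH-LMP2A, Mcm6 passed in 18 of 18 alternatives and Dtl and Clspn in 16 of 17. Against WT, Dtl passed in 16 of 18. Dtl had enough counts to test only through the LCDD libraries. No called member changed sign in any alternative run. The mean log2 CPM differences of 0.53 and 0.58 kept their direction, at 0.46 to 0.59 and 0.52 to 0.65 leaving out 1 library, and at 0.38 and 0.43 without codes NS161202 and NS170411.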
